A study of Mus musculus with 10 samples.

Results

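The genes of hepatic cholesterol synthesis, of sterol transport and of their control by SREBP2 were compared between lactating mice on diets of high or low glycaemic index. The members were 27 genes listed by name, each read by the probe set with the highest mean over the 10 arrays among probe sets annotated with 1 gene symbol. Of these, 25 were measured, out of 18193 genes with such a probe set. Acat2, a cytosolic thiolase, and Soat2, which esterifies cholesterol in hepatocytes, had none and were not analysed here. Livers of QSi5 mice, an inbred line of Quackenbush Swiss origin, were taken at peak lactation, with 1 Affymetrix array per mouse. Of the 10 mice, 5 ate the HGI diet (glucose at 51.4% by weight, with 15.6 MJ per kg). The other 5 ate the LGI diet (a starch rich in amylose at 51.4%, with 16.3 MJ per kg). Both diets began in pregnancy. No mouse carried an engineered allele or received a drug per the labels, and ages are not given in the sources used here. The labels assign positive energy balance to every HGI mouse and negative energy balance to every LGI mouse, so diet and energy balance cannot be told apart.

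Cholesterol is built from acetyl-CoA through mevalonate, the isoprenoid farnesyl diphosphate and the linear hydrocarbon squalene, which is closed to lanosterol and then trimmed to cholesterol. The transcription factor SREBP2, encoded by Srebf2, drives nearly all of these enzymes. It is made as a membrane protein of the endoplasmic reticulum, escorted by SCAP to the Golgi for cleavage when sterols are scarce, and held back by the INSIG proteins when sterols are plentiful. Insulin raises SREBP activity in liver, and the liver transcript of Insig2 is one that insulin represses.

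SREBP2 binds sterol response elements and works with the factor NF-Y, which binds CCAAT boxes, so both motifs were looked for in RefSeq promoters (GRCm38.p6, 250 bases before to 50 after the transcript start). Promoters were given for 21 of the 27 genes, and not for Fdps, Fdft1, Sqle, Stard4, Soat2 and Npc1. The letters TCACNCCAC, a sterol response element, were present on either strand in 1 of these 21 genes (Hmgcs1) and in 1.44% of all 27025 genes with a promoter. The letters CCAAT were present in 19 of the 21 (90.5%) and in 41.1% of all genes. Counted by promoter window, CCAAT was in 70.4% of 27 member windows and 37.4% of 32851 windows. The motifs do not overlap in the Hmgcs1 promoter, where the sterol response element lies at positions -137 to -129, counted from -1 at the base before the start. Below are the 150 bases before the start for Hmgcs1, Nsdhl, Idi1 and Cyp51, shown as enzymes with some of the larger differences between the diets, and for Srebf2, shown as the gene of the factor itself. Scap, not shown, had the largest difference among the members with a promoter (0.56) and neither motif in its 150 bases. A match is a description of the letters, not evidence of binding. Capitals mark the 2 motifs on either strand (ATTGG is CCAAT read on the other strand).
Hmgcs1, chr13:119690201-119690350, plus strand: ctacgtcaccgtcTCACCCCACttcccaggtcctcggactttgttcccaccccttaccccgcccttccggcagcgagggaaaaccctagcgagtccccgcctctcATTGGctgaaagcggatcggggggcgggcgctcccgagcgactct
Nsdhl, chrX:72918371-72918520, plus strand: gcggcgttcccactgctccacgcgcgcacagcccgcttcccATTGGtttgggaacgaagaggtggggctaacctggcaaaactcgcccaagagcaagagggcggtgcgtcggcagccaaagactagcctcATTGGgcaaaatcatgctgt
Idi1, chr13:8885456-8885605, plus strand: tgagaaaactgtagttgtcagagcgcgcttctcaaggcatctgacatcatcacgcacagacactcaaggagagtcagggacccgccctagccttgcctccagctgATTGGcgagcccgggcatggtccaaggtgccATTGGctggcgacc
Cyp51, chr5:4104698-4104847, minus strand: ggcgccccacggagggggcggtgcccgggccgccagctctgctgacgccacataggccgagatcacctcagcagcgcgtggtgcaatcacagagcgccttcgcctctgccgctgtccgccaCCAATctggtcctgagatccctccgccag
Srebf2, chr15:82147119-82147268, plus strand: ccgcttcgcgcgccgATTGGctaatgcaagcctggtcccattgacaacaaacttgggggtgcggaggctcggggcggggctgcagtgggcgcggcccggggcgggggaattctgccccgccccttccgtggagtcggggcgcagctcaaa

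The arrays correlated with each other at 0.986 to 0.996 over 45037 probe sets. HGI 1 had the narrowest spread of values (SD 2.16 on the log2 scale, against 2.26 to 2.31 in the other 9), and LGI 4 correlated least with the arrays of its diet (mean 0.988). The mean of 8 hepatocyte markers was 13.34 to 13.58 log2 in every liver, so the labelled tissue was matched by its markers. That mean was lowest in LGI 4, at 13.34 log2 against 13.38 to 13.58 in the other 9 livers and 13.54 to 13.58 in the other LGI livers. Without LGI 4, 0 of the 8 hepatocyte markers lay above 0 in HGI minus LGI, with a median of -0.08. LGI 4 stood apart in 5 neutrophil markers, with a mean of 6.48 log2 against 4.24 to 5.32 in the other 9 livers (S100a8 was 8.92 log2 in LGI 4 and at most 6.28 elsewhere). The 3' minus 5' differences of control probe sets, a measure of RNA integrity, were highest in different livers. That of Actb was highest in LGI 4 (2.27 log2, against 1.25 to 2.11 in the others), with LGI 5 next. That of Gapdh was highest in HGI 5 (0.987 log2), with LGI 4 next (0.871 log2). All 10 markers of Kupffer cells and macrophages and all 9 of sinusoidal endothelium lay above 0 in HGI minus LGI. Over all genes, 7611 of 18193 lay above 0. The medians of these marker lists were 0.29 and 0.19, and none of the markers passed the threshold in limma. The Kupffer cell and macrophage mean of LGI 4, 8.25 log2, lay above the other LGI livers (7.46 to 7.99) and within the HGI range (7.75 to 8.60). The mean of 4 erythroid markers separated the diets narrowly, at 6.12 to 6.90 log2 in HGI and 5.29 to 6.10 log2 in LGI, again with 0 past the threshold. Slc4a1 and Alas2 stood at 2.25 and 1.34 in HGI minus LGI. Klf1 and Epb42, the latter below the array median on all arrays, stood at 0.08 and 0.10. The part of these cells in the results below was not tested. In bulk liver, fewer cells of a type and less RNA per cell cannot be told apart.

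All 17 measured enzymes of the pathway had a higher mean in HGI than in LGI, as had 7611 of all 18193 genes. The genes of SREBP2 control and of sterol transport lay on both sides of 0. None of the 25 members passed the threshold (limma, adjusted p from 0.520 for Fdps to 0.997 for Hsd17b7). Over all probe sets 0.0644% passed. At an unadjusted limma p under 0.05, 6 members were higher in HGI (Fdps, Hmgcs1, Scap, Tm7sf2, Nsdhl and Npc2) and 0 were lower, where 3.07% of all genes were higher and 6.23% lower on that basis. That count of 6 was 2 when HGI 4, HGI 5, LGI 4 or LGI 5 was left out. The groups of 5 mice overlapped at all 25 members, and 2.17% of all genes had groups without overlap. The median difference, HGI minus LGI on the log2 scale, was 0.30 over the members and -0.03 over all genes. It was 0.17 without LGI 4 and 0.24 without HGI 1 and LGI 4 together.

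**Figure D1:**
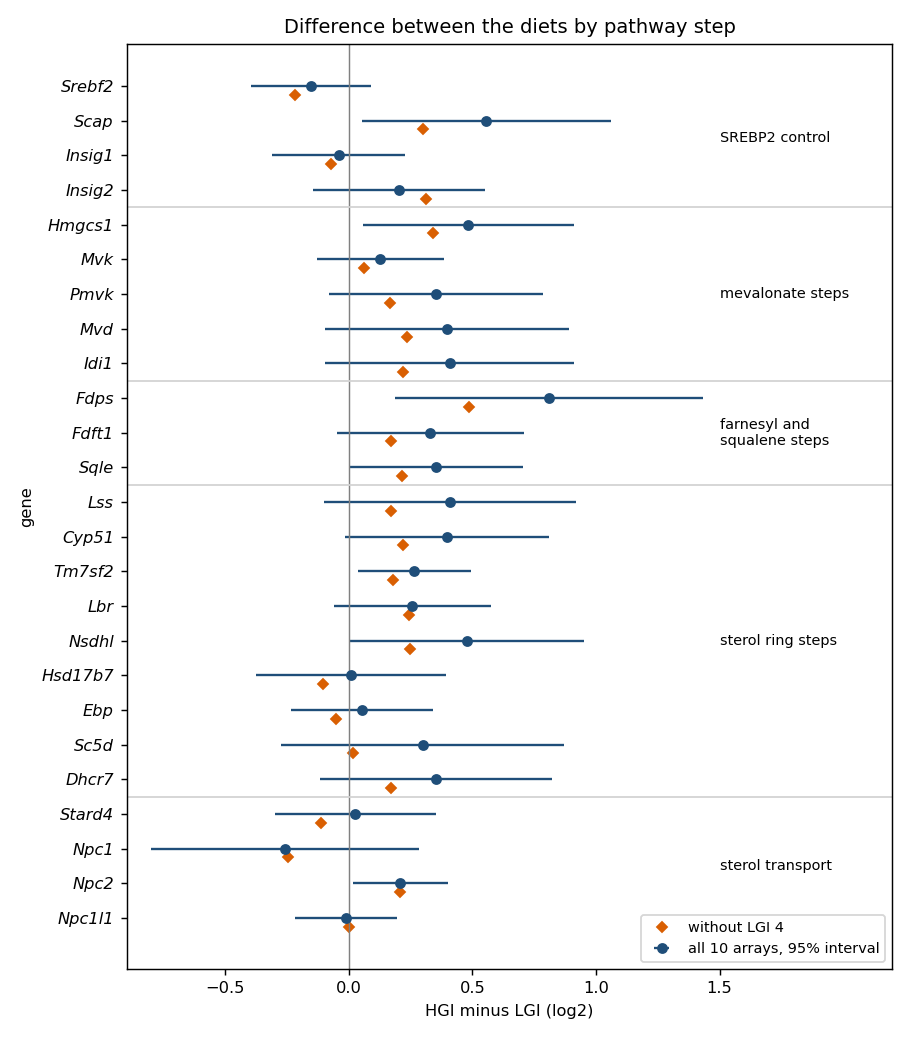
Difference between the diets, HGI minus LGI on the log2 scale, for the 25 measured members, which stand in pathway order. Circles with bars are limma's estimates with 95% intervals over all 10 arrays and diamonds the estimates without LGI 4. The enzymes lie to the right of 0, Fdps farthest at 0.81, and most move toward 0 without LGI 4.

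Among the genes of SREBP2 control, Srebf2 and Insig1 had differences below 0 and Scap was 1.47-fold higher in HGI, and none passed the threshold. Srebf2, the transcription factor, read 6.98, 7.44, 7.32, 7.51 and 7.45 log2 in HGI 1 to HGI 5 and 7.64, 7.49, 7.52, 7.23 and 7.59 log2 in LGI 1 to LGI 5. All 5 HGI livers lay below the LGI median, yet the lowest LGI value fell among those of HGI. The difference was -0.15 ± 0.11 (log2 ± SE, adjusted p = 0.823 in limma, 95% interval -0.40 to 0.09). Without HGI 1, the lowest liver for Srebf2, it was -0.06, and without LGI 4 it was -0.22. A second Srebf2 probe set gave -0.15 as well, but there 3 of 5 HGI livers lay above the LGI median. HGI 1 was again the lowest liver.

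Scap encodes the escort that carries SREBP2 to the Golgi. It read 10.50, 11.21, 10.82, 10.90 and 11.07 log2 in HGI and 10.50, 10.72, 10.74, 9.32 and 10.42 log2 in LGI. LGI 4 minus the mean of the other 4 LGI livers was -1.27, and 4 of 5 HGI livers exceeded every LGI liver. The difference of 0.56 ± 0.23 (adjusted p = 0.615 in limma) was 0.30 without LGI 4.

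The retention factors differed from each other in their order across the mice. Insig1, itself a target of SREBP2, read 9.50, 9.70, 9.98, 10.26 and 9.79 log2 in HGI and 9.93, 9.77, 9.996, 9.76 and 9.97 log2 in LGI. Its HGI values ran on both sides of a narrow LGI range (SD 0.29 against 0.11), and the difference was -0.04 (adjusted p = 0.972 in limma, 95% interval -0.31 to 0.23). Insig2 read 11.31, 11.78, 11.16, 11.30 and 11.14 log2 in HGI and 11.30, 11.21, 10.82, 11.58 and 10.78 log2 in LGI. Here LGI 4 was the highest of its group, 0.55 above the mean of the other 4. The difference was 0.20 (adjusted p = 0.838 in limma) and 0.31 without LGI 4. The other Insig2 probe sets stood at 0.31 and 0.44 (adjusted p = 0.691 and 0.579).

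**Figure D2:**
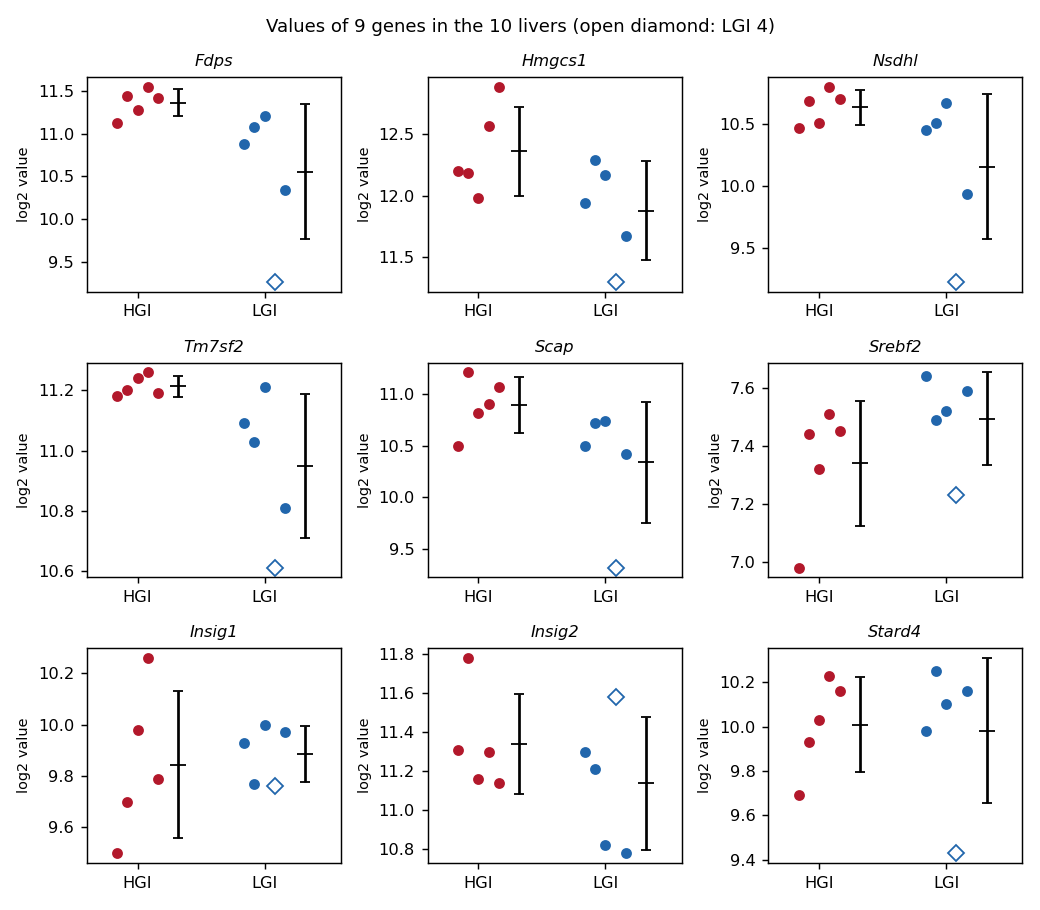
Deposited log2 values of 9 genes in the 10 livers, 1 panel per gene, each with its own vertical axis. Points are mice, the open diamond is LGI 4, and bars are group means with SD (n = 5). LGI 4 is the lowest point for Fdps, Hmgcs1, Nsdhl, Tm7sf2, Scap and Stard4, and the highest of its group for Insig2.

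Of the 6 mevalonate genes 5 were measured, and their differences ran from 0.13 to 0.48 with 0 past the threshold. Hmgcs1, the HMG-CoA synthase of the cytosol, read 12.20, 12.18, 11.98, 12.56 and 12.88 log2 in HGI and 11.94, 12.29, 12.17, 11.30 and 11.67 log2 in LGI. HGI 4 and HGI 5 exceeded every LGI liver, and the other 3 HGI livers lay within the LGI range. It was 1.40-fold higher in HGI (0.48 ± 0.20, adjusted p = 0.591 in limma) and stood at 0.34 without LGI 4. All 5 Hmgcs1 probe sets lay between 0.44 and 0.62, the dimmest of them below the array median on all arrays.

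Idi1, the isomerase that makes dimethylallyl diphosphate, read 10.90, 10.93, 11.07, 11.51 and 11.69 log2 in HGI and 10.98, 11.29, 11.27, 10.06 and 10.46 log2 in LGI. HGI 4 and HGI 5 were again above every LGI liver, and LGI 4 and LGI 5 were below every HGI liver. The difference was 0.41 ± 0.23 (adjusted p = 0.748 in limma), 0.22 without LGI 4. A dimmer Idi1 probe set stood at 0.65 (adjusted p = 0.602).

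Mvd, which decarboxylates mevalonate diphosphate, read 8.05, 7.50, 7.79, 8.35 and 8.74 log2 in HGI and 7.96, 7.64, 8.10, 7.04 and 7.70 log2 in LGI. Its groups overlapped from 7.50 to 8.10 log2 (difference 0.40, adjusted p = 0.748 in limma). Pmvk, phosphomevalonate kinase, read 8.53, 9.24, 9.33, 8.97 and 9.07 log2 in HGI and 8.80, 8.98, 9.03, 7.92 and 8.64 log2 in LGI. HGI 1 was below 4 of the 5 LGI livers for Pmvk (difference 0.35, adjusted p = 0.745). Mvk, mevalonate kinase, stood at 0.13 (adjusted p = 0.877).

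Farnesyl diphosphate synthase, Fdps, had the largest difference of the 25 members. It read 11.13, 11.44, 11.28, 11.55 and 11.42 log2 in HGI and 10.88, 11.08, 11.21, 9.26 and 10.34 log2 in LGI. The HGI livers were close together (SD 0.16, against 0.79 in LGI), and only LGI 3 reached above the lowest of them. Fdps was 1.75-fold higher in HGI (0.81 ± 0.29, 95% interval 0.19 to 1.43, adjusted p = 0.520 in limma). LGI 4 minus the mean of the other 4 LGI livers was -1.61, and without LGI 4 the difference was 0.49 (adjusted p = 0.438). A second Fdps probe set was below the array median on all arrays and stood at -0.01.

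Fdft1, squalene synthase, read 10.75, 10.74, 11.07, 11.08 and 11.30 log2 in HGI and 10.64, 10.97, 11.03, 10.01 and 10.64 log2 in LGI. Every HGI liver exceeded the LGI median, with 2 LGI livers inside the HGI range (difference 0.33, adjusted p = 0.720 in limma, and 0.17 without LGI 4). Sqle, squalene epoxidase, read 9.88, 9.76, 9.71, 10.24 and 10.24 log2 in HGI and 9.86, 9.84, 9.83, 9.07 and 9.47 log2 in LGI. For Sqle, HGI 1 to HGI 3 were level with LGI 1 to LGI 3, and the groups parted at HGI 4 and HGI 5 above and LGI 4 and LGI 5 below (difference 0.35, adjusted p = 0.663).

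The 9 enzymes from lanosterol synthesis onward had differences from 0.01 to 0.48, again with 0 past the threshold. Nsdhl, a dehydrogenase of C4 demethylation, read 10.47, 10.69, 10.51, 10.80 and 10.70 log2 in HGI and 10.45, 10.51, 10.67, 9.23 and 9.94 log2 in LGI. LGI 1, LGI 4 and LGI 5 were below every HGI liver, LGI 1 by little, and LGI 2 and LGI 3 were inside the HGI range. The difference was 0.48 ± 0.22 (adjusted p = 0.660 in limma), 0.25 without LGI 4.

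Tm7sf2, a sterol C14 reductase, was the steadiest enzyme within HGI. It read 11.18, 11.20, 11.24, 11.26 and 11.19 log2 in HGI (SD 0.03) and 11.09, 11.03, 11.21, 10.61 and 10.81 log2 in LGI (SD 0.24). LGI 3 alone reached into the HGI range. Its difference was 0.26 ± 0.11 (1.20-fold, adjusted p = 0.579 in limma) and 0.18 without LGI 4.

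Lbr, the lamin B receptor, which has the same reductase activity, had another order across the mice. It read 7.39, 7.18, 7.42, 8.02 and 7.97 log2 in HGI and 7.28, 7.39, 7.40, 7.29 and 7.33 log2 in LGI. The LGI livers lay within a narrow range that LGI 4 did not widen, and the difference of 0.26 (adjusted p = 0.748 in limma) went with high values in HGI 4 and HGI 5. Without LGI 4 it was 0.24.

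Cyp51, lanosterol demethylase, read 9.30, 9.81, 9.63, 9.79 and 10.01 log2 in HGI and 9.57, 9.48, 9.72, 8.60 and 9.17 log2 in LGI. HGI 1 lay below 3 LGI livers and the other 4 HGI livers above the LGI median (difference 0.40, adjusted p = 0.679 in limma). The other Cyp51 probe sets, both dimmer, stood at 0.61 and 0.21. Lss, which closes the ring, and Dhcr7, which makes cholesterol from 7-dehydrocholesterol, stood at 0.41 and 0.35 (adjusted p = 0.751 and 0.769), and both at 0.17 without LGI 4.

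The remaining ring enzymes had differences close to 0 once LGI 4 was left out. Sc5d, the sterol C5 desaturase, had a difference of 0.30 (adjusted p = 0.866 in limma), which was 0.01 without LGI 4. Ebp, the sterol isomerase, stood at 0.05 with an interval of -0.23 to 0.34 and at -0.05 without LGI 4. Hsd17b7, a 3-ketosteroid reductase, stood at 0.01 with an interval of -0.37 to 0.39 and at -0.10 without LGI 4. Its probe sets lay on both sides of 0, from -0.31 to 0.15.

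**Figure D3:**
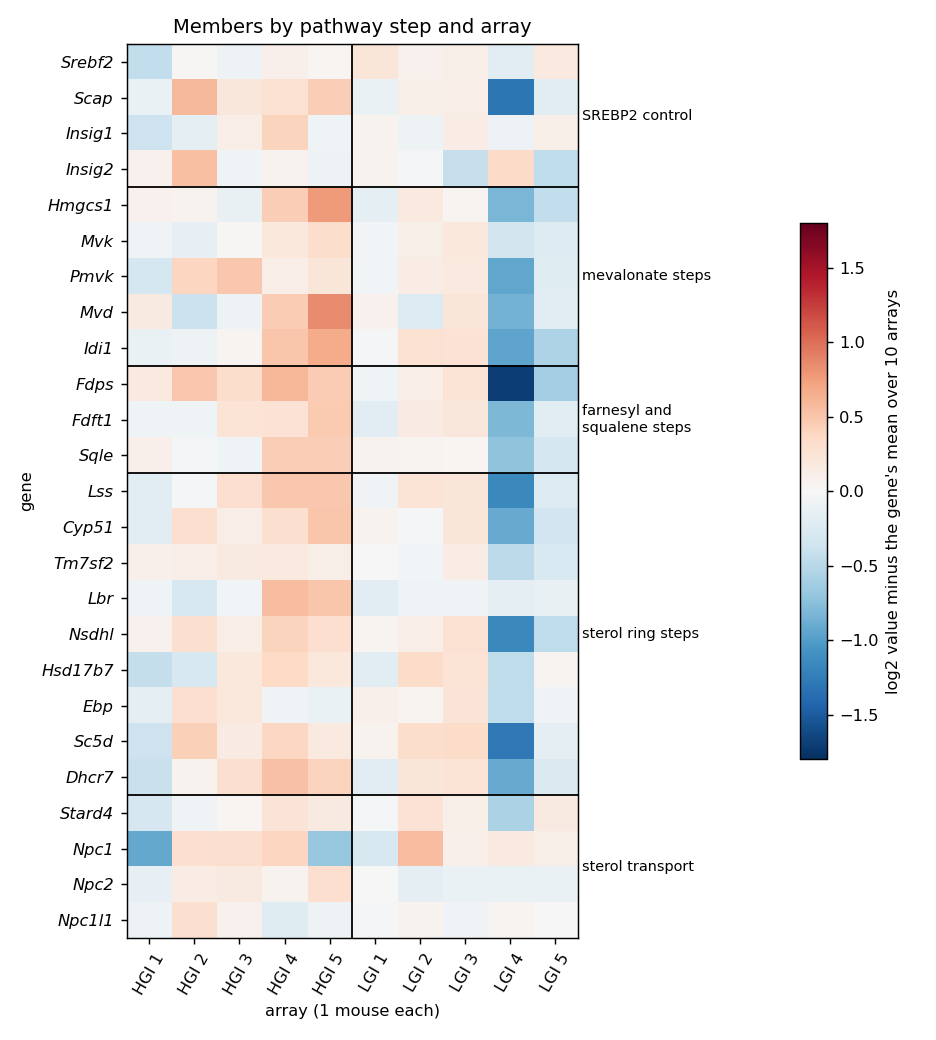
Deposited log2 value of each of the 25 measured members in each array, minus the gene's mean over the 10 arrays, with genes in pathway order and the diets on either side of the vertical line. Red is above and blue below the gene's mean. The column of LGI 4 is blue through the synthesis steps, where it is the lowest array for 16 of 17 enzymes, and HGI 4 and HGI 5 are mostly red there.

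The 4 measured genes of sterol transport lay close to 0 or on both sides of it. Npc2, which hands cholesterol over in the lysosome, read 10.27, 10.55, 10.58, 10.47 and 10.72 log2 in HGI and 10.41, 10.24, 10.30, 10.30 and 10.29 log2 in LGI. For Npc2 the 4 HGI livers other than HGI 1 exceeded every LGI liver (difference 0.21 ± 0.09, adjusted p = 0.624 in limma), and LGI 4 was level with its group. A second bright Npc2 probe set stood at 0.13 (adjusted p = 0.805), and 2 dimmer ones at -0.04 and -0.10.

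Npc1, the membrane partner of Npc2, ranged from 7.44 to 8.75 log2 in HGI (median 8.66) and from 8.08 to 8.93 log2 in LGI (median 8.47). HGI 1 and HGI 5 were low, at 7.44 and 7.68 log2, and the difference was -0.26 with a wide interval of -0.80 to 0.28 (adjusted p = 0.884 in limma). Without HGI 1 it was -0.06. Stard4, a cytosolic sterol carrier and SREBP2 target, had a difference of 0.03 (adjusted p = 0.985), which was -0.11 without LGI 4, and its other probe sets stood at -0.07 and 0.08. Npc1l1, the sterol importer of the apical membrane, was dim at 4.14 to 4.65 log2 and stood at -0.01 (adjusted p = 0.991).

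Most synthesis enzymes shared the livers in which they were lowest and highest. LGI 4 was the lowest of all 10 livers for 18 of 25 members (72.0%), and for 16 of the 17 enzymes (94.1%), the exception being Lbr. Among 7161 genes with a mean of at least 6 log2 it was the lowest for 13.4%. LGI 5 was the next lowest after LGI 4 for 10 of the 17 enzymes, against 1.38% of those 7161 genes. At the other end, HGI 4 or HGI 5 was the highest for 14 of the 17 enzymes (82.4%) and for 30.6% of those genes. The exceptions were Ebp and Sc5d, highest in HGI 2, and Pmvk, highest in HGI 3.

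Set against each gene's mean over the 10 arrays, the 17 enzymes averaged -0.83 log2 in LGI 4 and -0.27 in LGI 5. They averaged -0.05, 0.11 and 0.19 in LGI 1, LGI 2 and LGI 3. In HGI 1 to HGI 5 the averages were -0.10, 0.06, 0.13, 0.36 and 0.40, so that HGI 1 to HGI 3 overlapped LGI 1 to LGI 3. HGI 1 was low over the brighter genes: the 7161 genes with a mean of at least 6 log2 averaged -0.25 in it, below the -0.10 of its enzymes. It was the lowest of the 10 livers for 54.2% of those genes and for 3 of the 25 members. Over all 18193 genes, dim ones included, the average in HGI 1 was -0.09. The median gap of LGI 4 to the mean of the other 4 LGI livers was -0.81 over the enzymes and -0.02 over the 7161 genes. The 4 control genes averaged -0.31 in LGI 4 and the 4 transport genes -0.12. LGI 4 is also the liver with the high neutrophil markers (6.48 against at most 5.32 log2). It had the lowest mean of hepatocyte markers as well (13.34 against at least 13.38 log2). For the 3' minus 5' differences, LGI 4 was highest for Actb (2.27 log2) and next after HGI 5 for Gapdh (0.871 against 0.987 log2). The part of these cells and of RNA integrity in the low enzyme levels of LGI 4 was not tested. Without LGI 4, 15 of the 17 enzymes still had a difference above 0, with a median of 0.18 against 0.35 over all arrays. On that basis 7417 of all 18193 genes lay above 0.

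**Figure D4:**
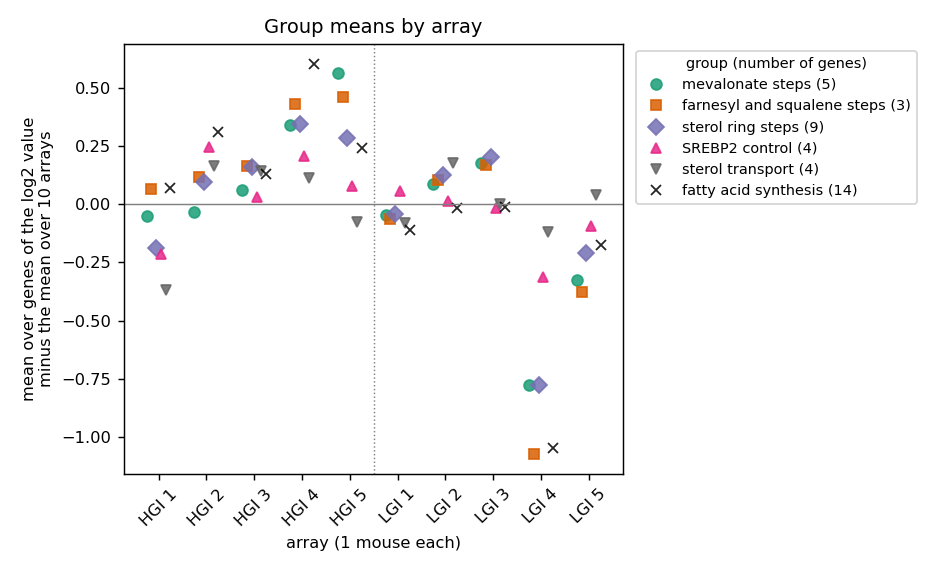
Mean over the genes of each group, in each array, of the log2 value minus the gene's mean over the 10 arrays. The number of genes is given in the key, and points of an array are set side by side for legibility. In LGI 4 the 3 synthesis groups and the fatty acid synthesis genes lie lowest, and in HGI 4 and HGI 5 the synthesis groups lie above 0.

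Other genes around the pathway gave 0 calls in the same limma fit. Of 9 SREBP proteases and turnover factors of the endoplasmic reticulum 7 were measured, with a median of 0.00. The proteases themselves, Mbtps1 and Mbtps2, stood at 0.02 and 0.04, and Pgrmc1, a haem protein that binds SCAP and INSIG1, at -0.19 (adjusted p = 0.627). Of 13 other sterol and isoprenoid enzymes 10 were measured, with a median of 0.13. They were led by Tmem97, a sterol-responsive membrane protein (0.29 ± 0.09, adjusted p = 0.461), and by Acly and Acss2, which make acetyl-CoA in the cytosol (0.75 and 0.76, adjusted p = 0.570 and 0.655). Without LGI 4, Acly and Acss2 stood at 0.46 and 0.38.

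Sterol efflux genes lay on both sides of 0. Of 8 LXR and efflux genes 7 were measured, with a median of 0.02. Abcg5, which pairs with Abcg8 in the transporter that exports sterol into bile, read 7.38, 8.51, 8.89, 8.28 and 7.66 log2 in HGI and 8.87, 8.82, 8.74, 8.72 and 9.21 log2 in LGI. HGI 1 and HGI 5 were the low livers, and HGI 3 lay inside the LGI range (difference -0.73 ± 0.23, adjusted p = 0.459 in limma). Its partner Abcg8 stood at -0.32 (adjusted p = 0.770), and Mylip, a ubiquitin ligase induced by LXR, at 0.20 (adjusted p = 0.829). Of 12 genes of intracellular sterol transport 11 were measured, with a median of -0.06. Among these, Scarb1, the receptor for high density lipoprotein, stood at -0.33 ± 0.10 (adjusted p = 0.395), Gramd1a at 0.15 and Scarb2 at -0.13.

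Fatty acid synthesis genes, which SREBP1 drives, had a larger median difference than the cholesterol genes in the same livers (0.61 over 14 genes against 0.30 over 25). The 25 include the genes of SREBP2 control and sterol transport, and the 17 cholesterol enzymes alone had a median of 0.35. The difference between these lists was not tested. None of the 14 passed the threshold, and 3 of them had groups without overlap, as had 2.17% of all genes: Fads2 (0.59, adjusted p = 0.0666 in limma), Fads1 (0.63, adjusted p = 0.121) and Gpam (0.66, adjusted p = 0.207). LGI 4 was the lowest of the 10 livers for 12 of the 14, and the list median was 0.42 without it. Acly and Acss2 belong to this list too. Srebf1, the gene of SREBP1, stood at -0.24 (adjusted p = 0.884).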

How the data were processed

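The authors deposited 1 log2 value for each probe set and array. The submitters' processing notes name RMA and R 2.6.1, with no role or order, and the sources used here give no genome build. RMA corrects background, makes the arrays' distributions alike and combines the probes of a set, so changes shared by most transcripts would be hidden and folds are compressed for dim probe sets. The deposited distributions were not fully alike, as the SD of HGI 1 was 2.16 log2 against 2.26 to 2.31 in the other arrays. Of 45101 probe sets, 64 controls were left out and 45037 tested. Symbols came from the platform annotation and, through gene IDs, a RefSeq table (GRCm38.p6), which changed 0 of them. Of the probe sets, 34945 had 1 symbol and 932 several.

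The diets were compared in limma 3.58.1 under R 4.3.3, using lmFit and eBayes without covariates. Benjamini-Hochberg adjustment ran over all 45037 probe sets, with a threshold of 0.05. Differences are HGI minus LGI. Precision is limited by there being 5 arrays per diet. Alternatives were another normalization, median centring, array weights, a robust variance trend, a minimum mean, 1 probe set per gene, the mean of a gene's probe sets, a replicate block, leaving out arrays, and a shorter promoter window. The labels do not state litters or cages. Where mice shared them, p-values measure only the spread between these samples. Samples that share a number across diets were not treated as pairs, since the correlations of their deviations from the group means lay between -0.13 and 0.04.

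Every measured member is named. Values in all samples are given for the 4 control genes and for the 12 others with the smallest p, and up to 3 genes per further list are named by smallest p, with Mbtps1, Mbtps2, Srebf1 and S100a8 added after their values were seen. Abcg5's values by liver were added likewise. The members, the lists and the alternatives were chosen with earlier results of these data known. Stellate cell, cholangiocyte, erythroid and lymphocyte markers had median differences of 0.06, 0.02, 0.72 and 0.06, hepatocyte markers -0.05 and neutrophil markers -0.12, with 0 genes past the threshold in any of these lists.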

Additional observations from a re-analysis of the deposited data

Results flagged for a closer look

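Among 50 groups of 5 values (25 members in 2 diets), 2 held a liver far from the rest of its group, where chance gives about 1 in 20 groups. For Scap, LGI 4 was the lowest of its group, and its gap to the nearest LGI liver was 0.774 of the group's range. For Insig2, HGI 2 was the highest of its group, with a gap of 0.728 of the range.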

How the results depend on the processing

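No member passed the threshold under any alternative (smallest adjusted p 0.270, for Scap without HGI 1 and LGI 4 together), and 20 of 25 members kept their sign under all of them. The median difference of the members lay between 0.169 and 0.407 when single arrays were left out. A minimum mean of 6 log2 left Npc1l1 without a value. The number of probe sets past the threshold, 29, was 63 with quantile normalization again, 17 with arrays centred on their median, 64 with array weights and 58 without HGI 1 and LGI 4 together, and ran from 5 to 49 when single arrays were left out. The count of 6 members higher at an unadjusted p under 0.05 was 3 with array weights and 3 with the replicate block, and ran from 2 to 8 when single arrays were left out. The replicate block gave 33 probe sets past the threshold. No HGI array correlated best with the LGI array of its own number.

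The 5 members that changed sign all stood within 0.06 of 0. Insig1 was 0.0185 with quantile normalization again and 0.0154 without HGI 1 and LGI 4, and ran from -0.143 to 0.0461 without single arrays. Hsd17b7 was -0.0168 with array weights and -0.0537 as the mean of its probe sets, and ran from -0.105 to 0.12. Stard4 was -0.00935 with array weights and -0.0331 without HGI 1 and LGI 4, and ran from -0.113 to 0.106. Npc1l1 was 0.0282 with array weights and 0.0195 without HGI 1 and LGI 4, and ran from -0.0846 to 0.0427. Ebp was -0.00424 without HGI 1 and LGI 4 and ran from -0.0541 to 0.119. The cause of these changes was not tested. Searching only the 250 bases before the start left the members' motif counts at 1 and 19 of 21 genes, against 1.22% and 37.5% of all genes.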
